A study of Mus musculus with 12 samples.

Results

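The tripartite motif (TRIM) family was measured in 4 populations of mouse lung dendritic cells on a 3′ expression array. A TRIM gene was counted when a probe set carried exactly 1 gene symbol made of Trim, a number and optional letters. By that rule 58 genes with 111 probe sets were found among the 18193 genes that had a probe set of a single symbol. Each gene was represented by its probe set of highest mean over the 12 arrays. The populations were Ly6Chi monocyte-derived dendritic cells (moDC), CD14hi moDC, CD14lo conventional dendritic cells (cDC) and CD103+ cDC, with 3 arrays each. Every population came from lungs of male C57BL/6 mice aged 8 to 12 weeks, taken 16 hours after 100 ng of lipopolysaccharide (LPS) and 100 µg of ovalbumin had been put into the airway in 50 µl. LPS is a bacterial product sensed through TLR4, and ovalbumin is a model antigen. Each replicate pooled 20 mice and each sort was over 93% pure by the labels. There was no untreated population: every comparison is between 2 sorted populations of treated lungs, and a response to LPS itself was not measured. In such pools a lower signal from fewer cells of a type and from less RNA per cell cannot be told apart.

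TRIM proteins share an N-terminal module of a RING domain, 1 or more B-boxes and a coiled coil, and most act as E3 ubiquitin ligases, the enzymes that pick the substrate to which ubiquitin is passed. Their C-terminal domain sets what they bind: a PRYSPRY domain in most antiviral members, an NHL repeat in others, and a PHD finger with a bromodomain in some nuclear corepressors. Many TRIM genes are induced by interferons, and TRIM proteins tune the RNA and DNA sensing pathways and NF-kappaB signalling of dendritic cells and macrophages.

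The deposited MAS5 signals are linear intensities that had been scaled to one trimmed mean on every array, and the array medians lay between 72.4 and 109. A gene was tested when its signal exceeded the array median on at least 3 of the 12 arrays, which 10919 genes did. The sort markers followed the labels: Itgae, which encodes CD103, averaged 86.5 ± 49.2, 140.1 ± 19.5, 855 ± 345 and 15180.0 ± 2600.0 (SD, n = 3 each) in Ly6Chi moDC, CD14hi moDC, CD14lo cDC and CD103+ cDC, and Cd14 averaged 10840.0 ± 1700.0, 11670.0 ± 2480.0, 1537 ± 245 and 968 ± 425 in the same order. Ly6c1 and Ly6c2 had no probe set of a single symbol, so the Ly6C gate was not checked. Markers of other cells differed between populations: the summed signal of 5 neutrophil genes was 3896 to 4196 in Ly6Chi moDC, 936 to 2071 in CD14hi moDC, 907 to 1277 in CD14lo cDC and 279 to 1844 in CD103+ cDC. Of these 5, S100a8, S100a9 and Csf3r were tested and all 3 were higher in Ly6Chi moDC than in each other population, with S100a8 at 1257 ± 264, 401 ± 230.0, 259 ± 129 and 355 ± 289 in the same order, while Mpo and Cxcr2 were dim in all 4. The sum of 9 lung epithelium genes was 2772 to 4050, 2902 to 4053, 3785 to 6806 and 4806 to 9234 in the same order, and of the 7 tested 6, 5 and 5 were lower in Ly6Chi moDC, CD14hi moDC and CD14lo cDC than in CD103+ cDC (23.2%, 16.9% and 13.4% of all genes tested). In each of these comparisons 1 was higher (24.3%, 20.2% and 15.3%). Cdh1 was lowest in CD103+ cDC, at 997.7 ± 187, 348.9 ± 119, 2470 ± 402 and 125.1 ± 23.8 in the same order. The Gapdh controls gave a 3′ to 5′ ratio, a sign of RNA or amplification quality, of 3.26 and 3.27 in CD103+ cDC replicates 1 and 3 and at most 2.29 in the other 10 arrays. Their part in the TRIM results was not tested. Without those 2 CD103+ arrays, 25 of the 91 calls of a TRIM gene in a comparison ended.

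Of the 58 TRIM genes, 39 passed the filter and 19 were dim. The filter let 29 of the 39 pass on all 12 arrays and 10 on some arrays only, so those 10 partly owe their test to the population in which they were high. A moderated F test among the 4 populations (limma, Benjamini-Hochberg adjustment over all genes tested, adjusted p under 0.05) called 24 of the 39, against 51.1% of all genes tested. The 24 were 18 of the 29 genes seen on every array and 6 of the other 10. With no filter it called 23 of all 58, against 30.8% of all 18193 genes. Among the 24 called genes the highest population mean was in Ly6Chi moDC for 1, in CD14hi moDC for 4, in CD14lo cDC for 5 and in CD103+ cDC for 14. The lowest mean was in Ly6Chi moDC for 9, in CD14hi moDC for 10, in CD14lo cDC for 1 and in CD103+ cDC for 4. The same counts were not made over all genes, so they are not shown to be particular to TRIM genes. The heat map of all 39 genes shows both the genes that rise towards CD103+ cDC and the few, led by Trim47, that run the other way.

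**Figure D1:**
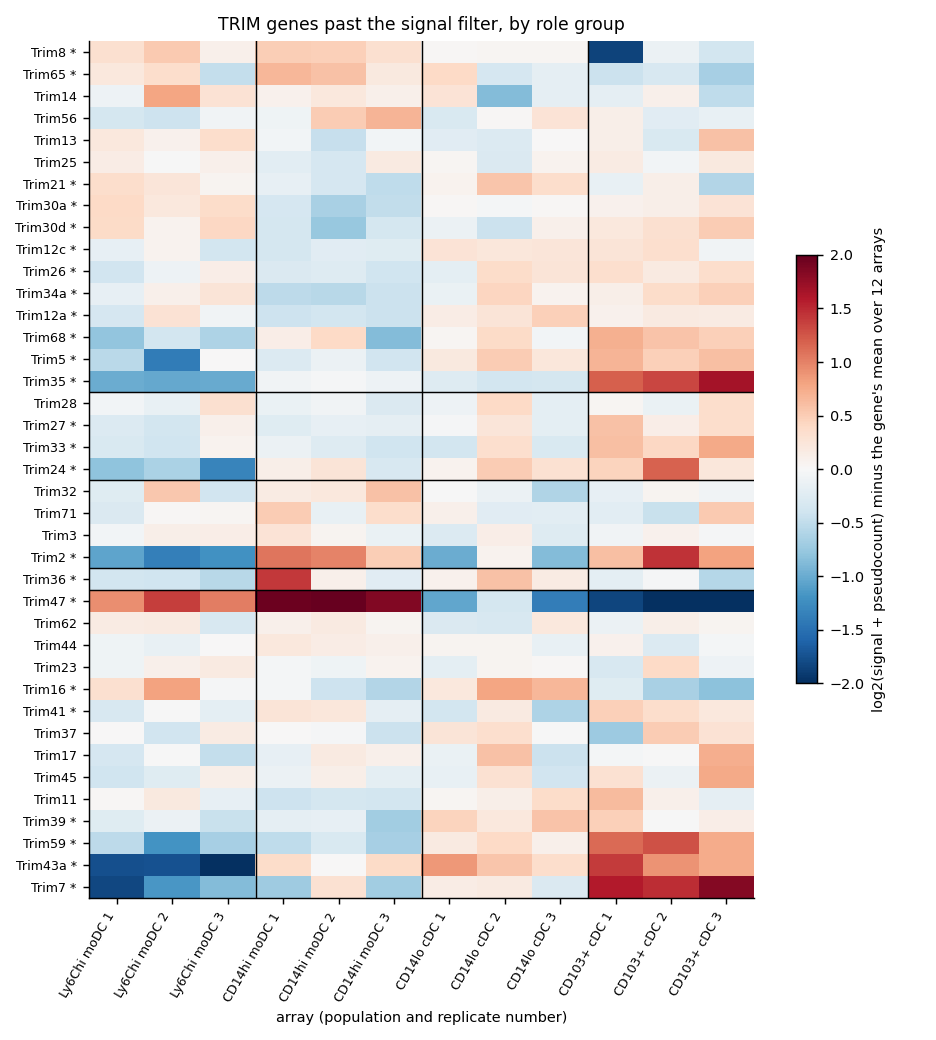
Each row is 1 of the 39 TRIM genes past the filter, each column 1 of the 12 arrays, and colour is log2(signal + pseudocount) minus the gene's own mean over the 12 arrays, with the colour range ending at 2 in each direction; black lines part the populations and, from top to bottom, the antiviral, nuclear, NHL, cytoskeleton and other role groups, and a star marks the 24 genes called by the F test. Trim47 is high in both moDC populations, while Trim35, Trim43a and Trim7 are highest in CD103+ cDC.

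In all 6 pairs of populations, more of the TRIM genes tested were lower than higher in the first-named one, although quantile normalization gave 5 of each in Ly6Chi against CD14hi moDC. In all moDC against all cDC arrays 4 of 39 were higher and 15 lower, where 20.7% of all genes tested were higher and 20.8% lower. Ly6Chi moDC against CD14hi moDC gave 3 higher and 8 lower (6.81% and 11.4% of all genes), with 4 lower without Ly6Chi moDC replicate 1 or CD14hi moDC replicate 2. Ly6Chi moDC against CD14lo cDC gave 1 higher and 7 lower (11.2% and 14% of all genes), the 1 becoming 2 without any 1 of 4 arrays, and Ly6Chi moDC against CD103+ cDC gave 3 higher and 11 lower (24.3% and 23.2%). CD14hi moDC against CD14lo cDC gave 2 higher and 8 lower (9.22% and 6.95%), and the 8 became 4 without CD14hi moDC replicate 2 or CD14lo cDC replicate 3, and 3 without CD14hi moDC replicate 3 or CD14lo cDC replicate 2. CD14hi moDC against CD103+ cDC gave 3 higher and 15 lower (20.2% and 16.9%), and CD14lo cDC against CD103+ cDC gave 4 higher and 7 lower (15.3% and 13.4%). Without CD103+ cDC replicates 1 and 3 the lower counts of these last 2 comparisons were 8 and 4. For CD14lo against CD103+ cDC, the lower count was also 4 without CD14lo cDC replicate 1, and the higher count was 2 without CD14lo cDC replicate 2 or 3 or CD103+ cDC replicate 1. The comparisons share arrays and are not independent of each other. The median log2 difference of the 39 genes was -0.20 in moDC against cDC and ran from -0.10 to -0.25 over the 6 pairs, while the median of all genes tested stayed within 0.03 of 0. Over all 58 TRIM genes the moDC against cDC median was -0.11, and the 6 pairs ran from -0.03, in CD14hi moDC against CD14lo cDC, to -0.18, in CD14hi moDC against CD103+ cDC. The Ly6Chi against CD14hi moDC median of the genes tested reached 0.03 with a stricter filter, and was 0.02 with quantile normalization and without Ly6Chi moDC replicate 1.

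**Figure D2:**
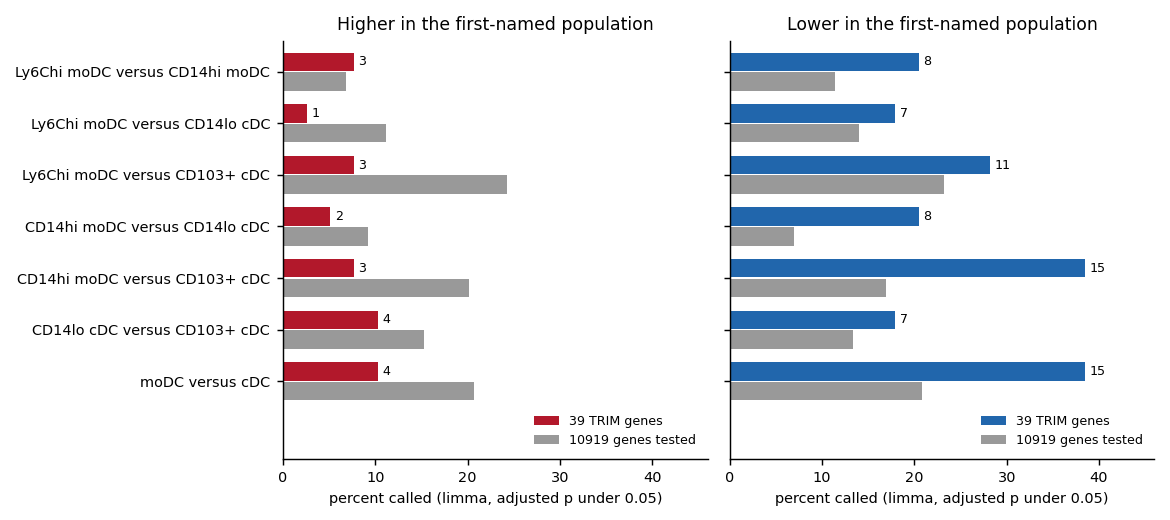
Bars give the percent of 39 TRIM genes (coloured) and of all 10919 genes tested (grey) called higher, left, or lower, right, in the first-named population of each comparison, by limma at an adjusted p under 0.05, with the number of TRIM genes at the bar. In CD14hi moDC against CD103+ cDC 15 TRIM genes were lower and 3 higher.

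The antiviral and interferon group held 19 TRIM genes, of which 16 passed the filter and 12 were called by the F test (51.1% of all genes tested). Trim35, reported to promote degradation of the interferon regulator IRF7, had the widest range of the group. Trim35 (probe set 1454650_at, chromosome 14) had signals of 1212, 1179.8 and 1198 in Ly6Chi moDC, 2331, 2428 and 2277 in CD14hi moDC, 2039, 1904 and 1924 in CD14lo cDC and 5672, 6282 and 7937 in CD103+ cDC. Every CD103+ array was above every other array and every Ly6Chi array below every other array. Trim35 was 5.31-fold lower in Ly6Chi moDC than in CD103+ cDC (log2 difference -2.41 ± 0.13 (SE), adjusted p = 4.4e-11) and 2.76-fold lower in CD14hi moDC than in CD103+ cDC (-1.47 ± 0.13, adjusted p = 7.8e-08). CD14lo cDC were 3.3-fold below CD103+ cDC (-1.72 ± 0.13, adjusted p = 1.6e-08). Between CD14hi moDC and CD14lo cDC Trim35 was not called (0.26 ± 0.13, adjusted p = 0.24), although every CD14hi array was above every CD14lo array. Its 2 other probe sets, at 145 to 1637 and 264 to 955 over the population means, were also lower in Ly6Chi moDC, CD14hi moDC and CD14lo cDC than in CD103+ cDC.

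A block of neighbouring TRIM genes on chromosome 7 followed another pattern. RefSeq places 10 TRIM genes there in the stretch from Trim6 to Trim30d, and any other genes between them were left out. The filter was passed by 6 of the 10: Trim34a, Trim5, Trim12a, Trim12c, Trim30a and Trim30d. Trim6 was dim, and Trim34b, Trim30b and Trim30c had no probe set of their own symbol. Trim5 and its rodent relatives Trim12a and Trim12c belong to the lineage of primate TRIM5, which recognises incoming retroviral capsids, and mouse Trim30a dampens TLR signalling by promoting loss of TAB2 and TAB3. The block was singled out after its values had been seen, and its genes are close paralogs that can share probe sequence, so the 6 are not independent measurements.

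Promoter stretches of 2 pairs of genes of the block are shown because they show how alike these genes are. They run from 80 bases before to 30 bases after the RefSeq start (GRCm38.p6), 5′ to 3′ on the gene's strand, and capitals mark the longest unbroken run that the 2 genes of a pair share.
Trim12a, chr7:104315466-104315575, minus strand: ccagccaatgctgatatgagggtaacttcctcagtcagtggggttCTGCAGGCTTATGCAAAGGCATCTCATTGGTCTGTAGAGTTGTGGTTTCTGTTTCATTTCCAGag
Trim12c, chr7:104353320-104353429, minus strand: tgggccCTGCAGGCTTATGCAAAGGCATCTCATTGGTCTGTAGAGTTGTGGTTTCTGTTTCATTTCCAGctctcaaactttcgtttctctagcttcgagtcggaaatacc
Trim30a, chr7:104465164-104465273, minus strand: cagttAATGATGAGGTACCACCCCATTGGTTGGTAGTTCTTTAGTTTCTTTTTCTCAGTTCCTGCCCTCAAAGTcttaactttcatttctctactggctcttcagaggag
Trim30d, chr7:104507820-104507929, minus strand: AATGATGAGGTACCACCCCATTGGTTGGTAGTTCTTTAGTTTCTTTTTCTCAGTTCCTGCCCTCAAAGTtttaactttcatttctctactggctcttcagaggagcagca
The run shared by Trim12a and Trim12c was 63 bases long, and that of Trim30a and Trim30d 69 bases. Over the wider window of 250 bases before to 50 after the start, the longest word that all 6 genes shared on either strand was AGAGAAA, 7 bases that 12.8% of the 27025 genes in the promoter table also held.

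All 6 genes of the block were lower in CD14hi moDC than in CD103+ cDC, and 4 of the 6 were lower in CD14hi moDC than in CD14lo cDC, where 16.9% and 6.95% of all genes tested were lower. The other Trim12a probe set, in a fit over all probe sets, was called in neither comparison (-0.149, adjusted p = 0.66, and -0.279, adjusted p = 0.51). The Trim12a call against CD103+ cDC also ended when its probe sets were averaged. Without CD103+ cDC replicates 1 and 3 the first count was 4, and the second was 2 without CD14hi moDC replicate 2 or CD14lo cDC replicate 2. Trim30a had signals of 4519.9, 3990.3 and 4457 in Ly6Chi moDC, 2714, 2163 and 2429.8 in CD14hi moDC, 3481, 3332 and 3471 in CD14lo cDC and 3637, 3736 and 4163 in CD103+ cDC. The CD14hi arrays were the lowest and the Ly6Chi arrays lay above the CD14lo arrays. Trim30a was 1.76-fold higher in Ly6Chi than in CD14hi moDC (log2 difference 0.82 ± 0.12 (SE), adjusted p = 0.00011), and 1.57-fold lower in CD14hi moDC than in CD103+ cDC (-0.65 ± 0.12, adjusted p = 0.00042). Between Ly6Chi moDC and CD103+ cDC Trim30a was not called (0.17 ± 0.12, adjusted p = 0.29). A fall below CD14lo cDC (-0.49 ± 0.12, adjusted p = 0.0099) was lost when CD14hi moDC replicate 2 was left out.

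Trim30d, the next gene of the block, had signals of 1792, 1437 and 1845 in Ly6Chi moDC, 1065, 791 and 1061 in CD14hi moDC, 1256, 1007 and 1465 in CD14lo cDC and 1585, 1728 and 1971 in CD103+ cDC. It was higher in Ly6Chi than in CD14hi moDC (log2 difference 0.77 ± 0.17 (SE), adjusted p = 0.0032) and lower in CD14hi moDC than in CD103+ cDC (-0.83 ± 0.17, adjusted p = 0.00078), with no overlap of arrays in either comparison. Trim34a, a near relative of Trim5 of less settled function, had signals of 1507, 1809 and 2024 in Ly6Chi moDC, 1151, 1133 and 1238 in CD14hi moDC, 1532, 2277 and 1779 in CD14lo cDC and 1829, 2178 and 2369.8 in CD103+ cDC. Its CD14hi arrays were again the lowest: it was higher in Ly6Chi than in CD14hi moDC (0.57 ± 0.16, adjusted p = 0.019), a call that ended without any 1 of 4 moDC arrays, and lower in CD14hi moDC than in CD103+ cDC (-0.82 ± 0.16, adjusted p = 0.00057). Trim12a had signals of 584, 921 and 713 in Ly6Chi moDC, 547, 569.6 and 539 in CD14hi moDC, 831, 905 and 1057 in CD14lo cDC and 800.4, 854 and 847 in CD103+ cDC, and Trim12c of 861, 1022 and 739 in Ly6Chi moDC, 752, 822 and 810.1 in CD14hi moDC, 1186, 1136 and 1152 in CD14lo cDC and 1171, 1232 and 915 in CD103+ cDC. Both were lower in CD14hi moDC than in CD14lo cDC, Trim12a with log2 difference -0.70 ± 0.17 (SE), adjusted p = 0.0068, and Trim12c with -0.52 ± 0.16, adjusted p = 0.031, the Trim12c call ending without any 1 of the 6 arrays compared. Both were also lower in all moDC than in all cDC (Trim12a -0.44 ± 0.12, adjusted p = 0.0058, Trim12c -0.42 ± 0.11, adjusted p = 0.0052). There, in a fit over all probe sets, the other Trim12a set was not called (-0.381, adjusted p = 0.069) and the other Trim12c set was lower (-0.631, adjusted p = 0.00012).

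By the probe sets that represent the genes, Trim5 departed from its neighbours in Ly6Chi moDC. Its signals were 415, 205 and 628 in Ly6Chi moDC, 509, 569 and 466 in CD14hi moDC, 717, 908 and 739.8 in CD14lo cDC and 1029, 885 and 976 in CD103+ cDC. The 3 Ly6Chi arrays varied most, and they lay below all cDC arrays. Trim5 was 2.34-fold lower in Ly6Chi moDC than in CD103+ cDC (log2 difference -1.23 ± 0.25 (SE), adjusted p = 0.00049) and 1.93-fold lower than in CD14lo cDC (-0.95 ± 0.25, adjusted p = 0.0081). The probe sets that represent the other 5 genes were not called between Ly6Chi moDC and either cDC population. In a fit over all probe sets, the other Trim12c set was lower in Ly6Chi moDC than in CD14lo cDC (-0.455, adjusted p = 0.041) and CD103+ cDC (-0.653, adjusted p = 0.0019). The other Trim30d set was higher than in CD14lo cDC (0.468, adjusted p = 0.034). Over alternatives other than leaving out 1 array, the block's lower count reached 3 in both comparisons.

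Trim21, a cytosolic receptor for antibody-coated virus on the same chromosome but outside the block, had signals of 1021, 950.3 and 828 in Ly6Chi moDC, 703, 615 and 544 in CD14hi moDC, 830.3, 1181 and 1029 in CD14lo cDC and 707, 860.1 and 510.3 in CD103+ cDC. It was lower in CD14hi moDC than in CD14lo cDC (log2 difference -0.66 ± 0.19 (SE), adjusted p = 0.022) and higher in CD14lo than in CD103+ cDC (0.53 ± 0.19, adjusted p = 0.043). The CD14lo and CD103+ arrays overlapped, and both calls ended when any of several arrays was left out. The CD14lo against CD103+ call ended in 13 of 23 alternatives. The other Trim21 probe set, in a fit over all probe sets, gave neither call (-0.341, adjusted p = 0.27, and 0.201, adjusted p = 0.47). Trim26, reported to act on nuclear IRF3, had signals of 640.4, 793 and 942 in Ly6Chi moDC, 690.1, 709 and 633 in CD14hi moDC, 737, 1119.8 and 1036 in CD14lo cDC and 1092, 978 and 1104 in CD103+ cDC. It was lower in CD14hi moDC than in CD103+ cDC (-0.61 ± 0.18, adjusted p = 0.011), and this call ended without CD103+ cDC replicates 1 and 3 (log2 difference -0.50). The other Trim26 probe set, in the fit over all probe sets, was not called in that comparison (-0.11, adjusted p = 0.77).

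Trim8 and Trim65 ran the other way, and were higher in all moDC than in all cDC (log2 differences 0.74 and 0.51, adjusted p = 0.0061 and 0.012). Neither was called in either moDC population against CD14lo cDC. Trim8 was itself called higher in CD14lo than in CD103+ cDC (0.814, adjusted p = 0.039), a call that ended in 10 of 23 alternatives. The Trim65 call in moDC against cDC ended without CD103+ cDC replicates 1 and 3. Trim8, which promotes TNF and IL-1 signalling to NF-kappaB through TAK1, had signals of 6756, 7810.1 and 5771 in Ly6Chi moDC, 7599, 7500.3 and 6724 in CD14hi moDC, 5499, 5544 and 5569.8 in CD14lo cDC and 1460.2, 4989.9 and 4173 in CD103+ cDC. CD103+ cDC replicate 1 was far below the other 2 CD103+ arrays. Trim8 was 2.3-fold higher in CD14hi moDC than in CD103+ cDC (log2 difference 1.20 ± 0.28 (SE), adjusted p = 0.0026) and 2.13-fold higher in Ly6Chi moDC than in CD103+ cDC (1.09 ± 0.28, adjusted p = 0.0039). Without CD103+ cDC replicate 1 these log2 differences were 0.67 and 0.56. Without CD103+ cDC replicates 1 and 3 they were 0.54 (adjusted p = 0.034) and 0.43 (adjusted p = 0.068), which ended the Ly6Chi call. Its 2 dimmer probe sets were also higher in both moDC populations than in CD103+ cDC.

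Trim65, which modifies the RNA sensor MDA5, had signals of 1846, 2037 and 1132 in Ly6Chi moDC, 2542, 2393 and 1819.8 in CD14hi moDC, 2104, 1252 and 1391 in CD14lo cDC and 1166, 1255 and 983 in CD103+ cDC. It was 1.93-fold higher in CD14hi moDC than in CD103+ cDC (log2 difference 0.95 ± 0.22 (SE), adjusted p = 0.0019), with all CD14hi arrays above all CD103+ arrays, and the call ended without CD103+ cDC replicates 1 and 3 (log2 difference 0.81, adjusted p = 0.08). Trim68 was near the array median, with signals of 39.3, 69.2 and 50.6 in Ly6Chi moDC, 119.8, 153 and 34.3 in CD14hi moDC, 109, 152 and 98.6 in CD14lo cDC and 203, 178 and 164 in CD103+ cDC. No Ly6Chi array and all CD103+ arrays were above the median, and Trim68 was 2.26-fold lower in Ly6Chi moDC than in CD103+ cDC (-1.18 ± 0.28, adjusted p = 0.0018).

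The other 4 tested members of the antiviral group were not called by the F test. Trim25, which ubiquitinates the RNA sensor RIG-I, was bright in all populations, with means of 9236 ± 495, 8098 ± 1613, 8427 ± 1128 and 9387 ± 885 (SD, n = 3 each) in Ly6Chi moDC, CD14hi moDC, CD14lo cDC and CD103+ cDC (F test adjusted p = 0.43). Its 2 dimmer probe sets, in a fit over all probe sets, were higher in Ly6Chi than in CD14hi moDC (log2 differences 0.55 and 0.68, adjusted p = 0.024 and 0.019), so the probe sets of Trim25 did not give one answer. Trim56, linked to STING and double-stranded DNA sensing, was lower in Ly6Chi than in CD14hi moDC (-0.65 ± 0.21, adjusted p = 0.039), with overlapping arrays. The Trim56 call ended in 6 of 23 alternatives. Trim14, which lacks a RING and binds MAVS, was higher in moDC than in cDC at the edge of the threshold (0.45 ± 0.18, adjusted p = 0.05), and this call ended under most alternatives. Trim13, a member of the endoplasmic reticulum, was called in no comparison, with population means of 71.8 to 110.3. Trim6, Trim29 and Trim31 of this group were dim.

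Of the 4 nuclear corepressors tested 3 were lower in moDC than in cDC, where 20.8% of all genes were, and the calls of Trim27 and Trim33 ended without CD103+ cDC replicates 1 and 3. Trim24 (TIF1-alpha), a bromodomain protein that limits p53 and retinoic acid receptor activity, had signals of 87.2, 105 and 46.4 in Ly6Chi moDC, 210.4, 239 and 143 in CD14hi moDC, 202, 291 and 248 in CD14lo cDC and 278, 494 and 232 in CD103+ cDC. All Ly6Chi arrays were below all other arrays. Trim24 was 2.91-fold lower in Ly6Chi moDC than in CD103+ cDC (log2 difference -1.54 ± 0.26 (SE), adjusted p = 8e-05) and 2.32-fold lower than in CD14lo cDC (-1.22 ± 0.26, adjusted p = 0.0017). Trim33 (TIF1-gamma), a regulator of SMAD4 and of blood cell differentiation, had signals of 567, 526 and 747 in Ly6Chi moDC, 652, 589.8 and 528 in CD14hi moDC, 539, 912 and 565 in CD14lo cDC and 1109, 966 and 1237 in CD103+ cDC. The CD103+ arrays were the highest, and the means were 614 ± 118, 589.7 ± 61.9, 672 ± 208 and 1104 ± 136 (SD, n = 3 each), so that the CD14lo mean was nearer to the moDC means than to the CD103+ mean. Trim33 was lower in CD14hi moDC than in CD103+ cDC (-0.85 ± 0.20, adjusted p = 0.0022); without CD103+ cDC replicates 1 and 3 this was -0.67 (adjusted p = 0.11), and in moDC against cDC -0.39 (adjusted p = 0.1).

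Trim27, a nuclear repressor also known as RFP, averaged 4838 ± 888, 4743 ± 132, 5509.5 ± 866 and 7025 ± 1110.0 (SD, n = 3 each) in Ly6Chi moDC, CD14hi moDC, CD14lo cDC and CD103+ cDC, and was lower in moDC than in cDC (log2 difference -0.37 ± 0.11 (SE), adjusted p = 0.0098). That call also ended when its 6 probe sets were averaged. Trim28 (KAP1), the corepressor recruited by KRAB zinc-finger proteins, averaged 2566 ± 473, 2199 ± 178, 2573 ± 608 and 2648 ± 476 in the same order, with F test adjusted p = 0.58. Trim66 was dim.

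Of the 4 NHL members only Trim2 was called by the F test, which called 51.1% of all genes tested. Trim2, a ligase of neurofilament light chain studied in neurons, had signals of 52.8, 32.9 and 42.5 in Ly6Chi moDC, 399, 374 and 249.7 in CD14hi moDC, 56.8, 174 and 67.2 in CD14lo cDC and 273, 529 and 323 in CD103+ cDC. It was high in CD14hi moDC and CD103+ cDC, and below the array median on all Ly6Chi and 2 of the 3 CD14lo arrays. Trim2 was 4.17-fold lower in Ly6Chi than in CD14hi moDC (log2 difference -2.06 ± 0.28 (SE), adjusted p = 3.3e-05), 2.73-fold higher in CD14hi moDC than in CD14lo cDC (1.45 ± 0.28, adjusted p = 0.0012) and 2.92-fold lower in CD14lo than in CD103+ cDC (-1.55 ± 0.28, adjusted p = 0.00039). Its probe set is of the kind (_x_at) that Affymetrix marks as open to cross-hybridisation. Among its 5 other probe sets 1 passed the filter, and that set was also lower in Ly6Chi than in CD14hi moDC (log2 difference -1.44, adjusted p = 0.00061) and higher in CD14hi moDC than in CD14lo cDC (0.91, adjusted p = 0.025), but was not called in CD14lo against CD103+ cDC (-0.68, adjusted p = 0.068). With its probe sets averaged, the 3 log2 differences of Trim2 were -0.92, 0.59 and -0.50. Trim3, Trim32 and Trim71, the last a stem cell regulator homologous to worm LIN-41, were called in no comparison.

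The cytoskeleton and muscle group was mostly dim: 6 of its 7 members were dim and only Trim36, which binds microtubules, passed. Trim36 had signals of 549.8, 537 and 475 in Ly6Chi moDC, 2007, 777 and 608 in CD14hi moDC, 771, 1115 and 821 in CD14lo cDC and 626, 709 and 473 in CD103+ cDC. It was lower in Ly6Chi than in CD14hi moDC (-0.87 ± 0.30, adjusted p = 0.049), CD14hi replicate 1 was the highest of the 12 arrays, and the call ended in 15 of the alternatives.

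The remaining group held 23 genes, of which 14 passed and 7 were called by the F test (51.1% of all genes tested). Trim47, a ligase first described from astrocytoma tissue, had the widest range of all TRIM genes and was the strongest of the few that were higher in moDC. Trim47 (probe set 1426784_at, chromosome 11) had signals of 785, 1088 and 835 in Ly6Chi moDC, 1649, 1971 and 1522 in CD14hi moDC, 163, 293 and 117 in CD14lo cDC and 73.1, 30.5 and 40.2 in CD103+ cDC. The 4 populations did not overlap, and no CD103+ array was above its array median. Trim47 was 8.64-fold higher in moDC than in cDC (log2 difference 3.11 ± 0.17 (SE), adjusted p = 6.3e-11). It was 18.2-fold higher in CD14hi moDC than in CD103+ cDC (4.19 ± 0.24, adjusted p = 1.5e-10), 4.1-fold higher in Ly6Chi moDC than in CD14lo cDC (2.04 ± 0.24, adjusted p = 3.4e-06) and 2.39-fold higher in CD14lo than in CD103+ cDC (1.26 ± 0.24, adjusted p = 0.00065). These folds are on the scale of signal plus the pseudocount, which understates the change of a gene as dim as Trim47 in CD103+ cDC: with a smaller pseudocount the CD14hi moDC against CD103+ cDC log2 difference was 4.95. The difference between Ly6Chi and CD14hi moDC (-0.89 ± 0.24, adjusted p = 0.014) ended without any 1 of 3 moDC arrays. The sum of 8 fibroblast and endothelium genes was also higher in both moDC populations than in both cDC populations. It was 3276 to 4790 in Ly6Chi moDC, 4813 to 5626 in CD14hi moDC, 1661 to 2093 in CD14lo cDC and 1738 to 2228 in CD103+ cDC. Of those 8 genes 7 were tested, with 4 higher and 0 lower in moDC than in cDC (20.7% and 20.8% of all genes). Mgp made up most of the sum, at 2939 ± 689, 4067 ± 519, 1135 ± 285 and 1299 ± 252 in the same order, and Cldn5 was dim. Pecam1 and Cdh5 did not follow Trim47. In the same order Pecam1 was at 170.8 ± 113, 111.3 ± 27.7, 202.4 ± 22.7 and 51.04 ± 18.8. Cdh5 was at 157.4 ± 55.6, 28.53 ± 18, 61.91 ± 16.6 and 62.99 ± 43.2. The part of these fibroblast and endothelium genes in the Trim47 result was not tested.

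Trim7, Trim59 and Trim43a ran opposite to Trim47 between moDC and cDC, and were lower in moDC. Trim7 (probe set 1439352_at, chromosome 11), which binds the glycogen primer glycogenin, had signals of 119, 215 and 276 in Ly6Chi moDC, 313, 682 and 315 in CD14hi moDC, 610.3, 625 and 435 in CD14lo cDC and 1737, 1607 and 2079.9 in CD103+ cDC. The CD103+ arrays were all above the others and the Ly6Chi arrays all below. Trim7 was 7.56-fold lower in Ly6Chi moDC than in CD103+ cDC (log2 difference -2.92 ± 0.27 (SE), adjusted p = 4.1e-08), 4.02-fold lower in CD14hi moDC than in CD103+ cDC (-2.01 ± 0.27, adjusted p = 8.9e-06) and 3.08-fold lower in CD14lo than in CD103+ cDC (-1.62 ± 0.27, adjusted p = 0.00015). With its probe sets averaged, the Ly6Chi moDC against CD103+ cDC difference was -2.08. In a fit over all probe sets, another Trim7 set was also lower in Ly6Chi moDC (-1.80, adjusted p = 3.9e-06) and CD14hi moDC (-1.27, adjusted p = 0.00032) than in CD103+ cDC. That set was not called in CD14lo against CD103+ cDC (-0.643, adjusted p = 0.056). Between CD14hi moDC and CD14lo cDC Trim7 was not called (-0.39 ± 0.27, adjusted p = 0.4).

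Trim43a (probe set 1437004_at, chromosome 9), 1 of a set of near-identical copies known from the early mouse embryo, had signals of 64, 65.4 and 43.4 in Ly6Chi moDC, 448, 338 and 453 in CD14hi moDC, 652, 515 and 442 in CD14lo cDC and 972, 674 and 597 in CD103+ cDC. It was below the array median on all Ly6Chi arrays and above it on all 9 others, so Trim43a separated Ly6Chi moDC from the other 3 populations. It was 4.29-fold lower in Ly6Chi than in CD14hi moDC (log2 difference -2.10 ± 0.21 (SE), adjusted p = 7.1e-07) and 7.3-fold lower than in CD103+ cDC (-2.87 ± 0.21, adjusted p = 1.9e-09). Between CD14hi moDC and CD103+ cDC the difference was smaller (-0.77 ± 0.21, adjusted p = 0.0076) and ended without CD103+ cDC replicate 1, and without replicates 1 and 3 (adjusted p = 0.11). The RefSeq table lists other Trim43 copies, and signal from them cannot be told apart here.

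Trim59, a membrane-anchored member, had signals of 247, 138 and 219 in Ly6Chi moDC, 251, 298 and 220.0 in CD14hi moDC, 436, 517 and 410.4 in CD14lo cDC and 892, 989 and 669 in CD103+ cDC. It was graded, and lower in both moDC populations than in both cDC populations with no overlap of arrays. Trim59 was 3.6-fold lower in Ly6Chi moDC than in CD103+ cDC (log2 difference -1.85 ± 0.21 (SE), adjusted p = 6.1e-07), 2.03-fold lower in Ly6Chi moDC than in CD14lo cDC (-1.02 ± 0.21, adjusted p = 0.001) and 1.77-fold lower in CD14lo than in CD103+ cDC (-0.82 ± 0.21, adjusted p = 0.0056). Trim59 was not called between the 2 moDC populations (-0.30 ± 0.21, adjusted p = 0.36), and its second probe set gave the same calls.

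Trim16 and Trim39 made other contrasts. Trim16, which takes part in the removal of damaged lysosomes, had signals of 162, 247 and 118 in Ly6Chi moDC, 115, 78.2 and 63.8 in CD14hi moDC, 147, 244 and 219 in CD14lo cDC and 94.7, 59.4 and 46.7 in CD103+ cDC. It was higher in Ly6Chi moDC than in CD103+ cDC (log2 difference 0.93 ± 0.26 (SE), adjusted p = 0.0058) and higher in CD14lo than in CD103+ cDC (1.12 ± 0.26, adjusted p = 0.0028), although only 1 CD103+ array was above the array median. Trim39, which stabilises the apoptosis protein MOAP-1, had signals of 333, 371 and 282 in Ly6Chi moDC, 352, 356 and 231 in CD14hi moDC, 569, 477 and 621 in CD14lo cDC and 583, 401 and 447 in CD103+ cDC. It was 1.53-fold lower in moDC than in cDC (-0.61 ± 0.14, adjusted p = 0.0018), and all moDC arrays were below all cDC arrays. Trim41, a ligase of protein kinase C, averaged 777 ± 91.1, 957 ± 161, 742 ± 233 and 1133 ± 111 (SD, n = 3 each) in Ly6Chi moDC, CD14hi moDC, CD14lo cDC and CD103+ cDC. Its calls against CD103+ cDC (Ly6Chi moDC -0.52 ± 0.20, adjusted p = 0.036; CD14lo cDC -0.61 ± 0.20, adjusted p = 0.024) ended without CD103+ cDC replicates 1 and 3. Trim11 was lower in CD14hi moDC than in CD103+ cDC (-0.57 ± 0.20, adjusted p = 0.031) and was not called by the F test. The Trim11 call ended in 7 alternatives, among them leaving out any 1 of the 3 CD14hi moDC arrays, CD103+ cDC replicate 1 (log2 difference -0.34, adjusted p = 0.19) or CD103+ cDC replicates 1 and 3 (adjusted p = 0.17). Trim17, Trim23, Trim37, Trim44, Trim45 and Trim62 were called in no comparison.

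**Figure D3:**
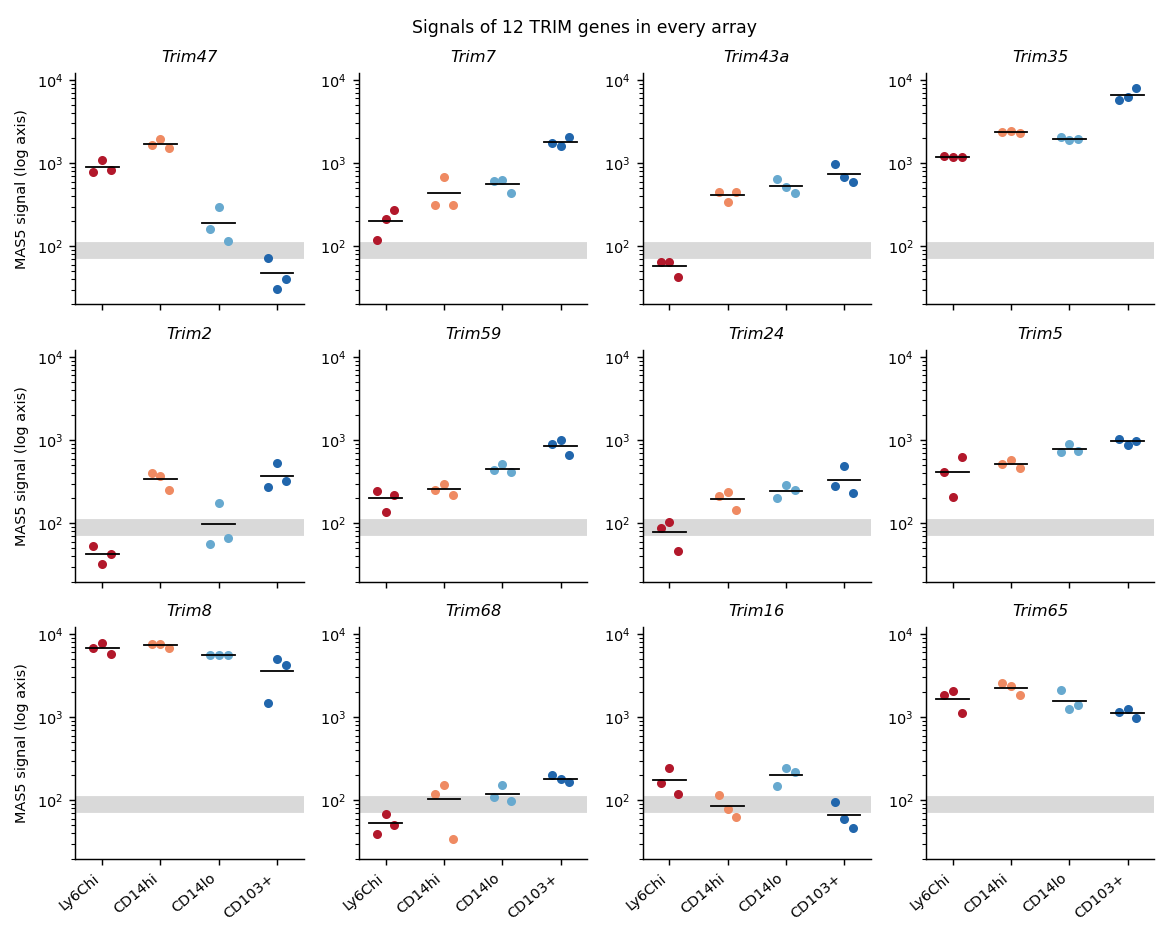
Points are the MAS5 signals (log axis) of each array for the 12 TRIM genes with the widest range of population means among those called by the F test, by population, and black lines are the means of 3 arrays; the grey band spans the medians of the 12 arrays. Trim47 falls into the band or below it in CD103+ cDC, and Trim43a falls below it in Ly6Chi moDC.

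Over the 15 genes that passed but were not called by the F test, the log2 range of population means was 0.10 to 0.65 and the adjusted p 0.064 to 0.97. A p that misses the threshold does not show that their levels are alike. Of the 39 genes tested, 23 had several probe sets past the filter, and no gene was called in opposite directions by 2 of its probe sets in any of the 7 comparisons. Among the 19 dim genes no population mean was above 89.7. Trim72, Trim46 and Trim29 were above the array median on 1, 2 and 2 arrays, with highest means of 89.7 in CD103+ cDC, 67.7 in CD14lo cDC and 64.4 in CD14lo cDC. The other 16 were above it on none: Trim54 and Trim69 reached 62.1 and 52.5 in CD14hi moDC, Trim6 reached 48.4 in Ly6Chi moDC, Trim60 reached 38.7 in CD103+ cDC, and Trim66, Trim67, Trim61, Trim75, Trim15, Trim9, Trim10, Trim31, Trim42, Trim63, Trim40 and Trim80 had highest means of 29.5 down to 7.75. A dim signal gives only that these probe sets were near background. Probe sets shared by several symbols were left out, among them those of Trim34b and Trim30b.

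The genes that TRIM proteins work with were counted beside them. Of 24 interferon-stimulated genes 22 were tested. In Ly6Chi moDC against CD14hi moDC 15 were higher and 0 lower (6.81% and 11.4% of all genes tested), in Ly6Chi moDC against CD14lo cDC 11 and 0 (11.2% and 14%), and in Ly6Chi moDC against CD103+ cDC 15 and 0 (24.3% and 23.2%), the last 0 being 1 without CD14lo cDC replicate 2 or CD103+ cDC replicate 3. CD14hi moDC against CD14lo cDC gave 3 higher and 2 lower (9.22% and 6.95%). There the 3 became 1 without CD14hi moDC replicate 1, and the 2 became 1 without CD14hi moDC replicate 1 or 2 or CD14lo cDC replicate 3, and 5 without CD14lo cDC replicate 2. CD14hi moDC against CD103+ cDC gave 8 and 3 (20.2% and 16.9%), where the 3 became 1 without CD14hi moDC replicate 2 or without CD103+ cDC replicates 1 and 3. CD14lo cDC against CD103+ cDC gave 10 and 1 (15.3% and 13.4%), the 1 being 2 without CD14lo cDC replicate 3. The median log2 difference over the 22 was 0.69 in Ly6Chi moDC against CD14hi moDC and 0.90 in Ly6Chi moDC against CD103+ cDC. Oas2, which makes the activator of RNase L, was 7.52-fold higher in Ly6Chi moDC than in CD103+ cDC (log2 difference 2.91 ± 0.24 (SE), adjusted p = 1.1e-08), and the chemokine gene Cxcl10 was 6.16-fold higher (2.62 ± 0.26, adjusted p = 8.9e-08). Isg20, an exonuclease gene, was higher in Ly6Chi than in CD14hi moDC (1.39 ± 0.26, adjusted p = 8e-04). In those same pairs the chromosome 7 block of TRIM genes had 3 of 6 higher in Ly6Chi moDC than in CD14hi moDC, but 0 higher and 1 lower in Ly6Chi moDC than in CD103+ cDC, the 1 being 2 without Ly6Chi moDC replicate 2 or CD103+ cDC replicate 3. In CD14hi moDC against CD103+ cDC the block had 0 higher and 6 lower where the interferon-stimulated genes had 8 and 3, and without CD103+ cDC replicates 1 and 3 the lower counts were 4 and 1. The difference between the 2 sets was not tested.

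**Figure D4:**
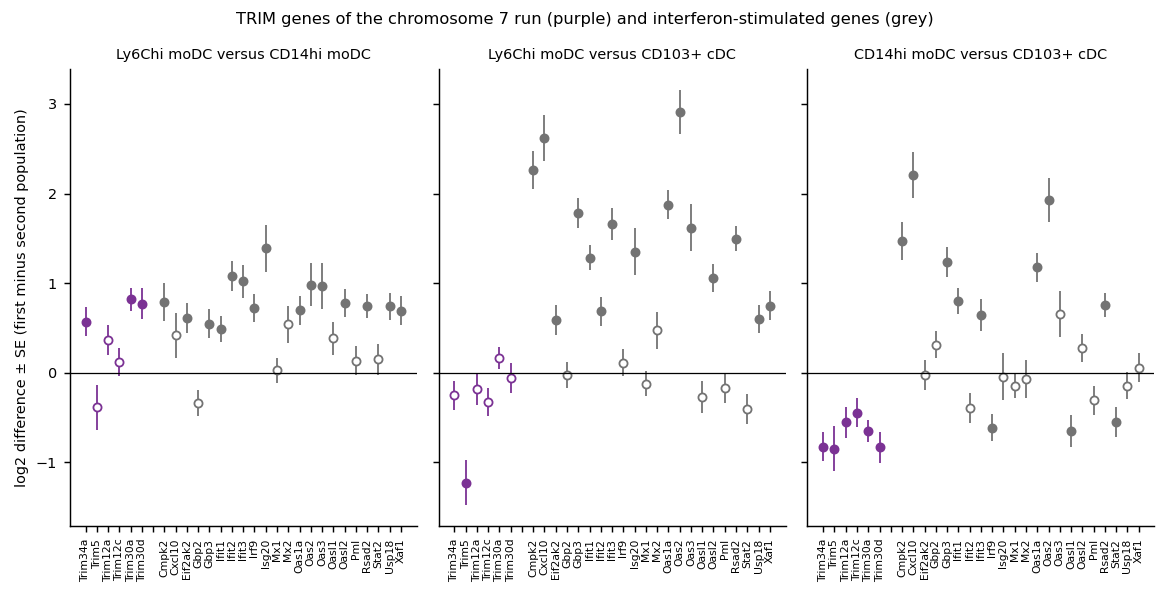
Points are log2 differences of the first-named minus the second-named population with the standard error from limma, for the 6 tested TRIM genes of the chromosome 7 block (purple) and the 22 tested interferon-stimulated genes (grey), in 3 comparisons; filled points were called at an adjusted p under 0.05. In CD14hi moDC against CD103+ cDC all 6 TRIM genes are below 0, while the interferon-stimulated genes fall on both sides.

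Of 20 sensors and adaptors on which TRIM proteins are known to act, 18 were tested. Against CD103+ cDC, 7 were higher and 3 lower in Ly6Chi moDC (24.3% and 23.2% of all genes tested), 6 higher and 3 lower in CD14hi moDC (20.2% and 16.9%), and 5 higher and 2 lower in CD14lo cDC (15.3% and 13.4%). Without CD103+ cDC replicates 1 and 3 these were 6 and 2, 4 and 2, and 3 and 0. The CD14lo counts were also 3 and 1 without CD14lo cDC replicate 3, and their lower count was 4 without CD103+ cDC replicate 2 and 1 without CD103+ cDC replicate 3. Ly6Chi against CD14hi moDC gave 7 higher and 0 lower (6.81% and 11.4%), and the 7 became 2 without Ly6Chi moDC replicate 2 or CD14hi moDC replicate 2, 3 without Ly6Chi moDC replicate 3 and 4 without CD14hi moDC replicate 3. Ly6Chi moDC against CD14lo cDC gave 5 higher and 1 lower (11.2% and 14%). There the 5 became 3 without Ly6Chi moDC replicate 3, and the 1 became 0 without that array or CD14lo cDC replicate 1 or 3, and 2 without Ly6Chi moDC replicate 2 or CD103+ cDC replicate 1 or 2. CD14hi moDC against CD14lo cDC gave 1 higher and 3 lower (9.22% and 6.95%), and 1 to 2 and 2 to 3 leaving out 1 array. Among the 3 lower were Dhx58 (log2 difference -0.77 ± 0.15 (SE), adjusted p = 0.0013) and Sting1 (-0.63 ± 0.12, adjusted p = 0.00075). All moDC against all cDC gave 6 higher and 4 lower (20.7% and 20.8%), the 4 becoming as few as 2 leaving out 1 array. Ikbke, a kinase that activates IRF3 and IRF7, was 4.97-fold higher in moDC than in cDC (log2 difference 2.31 ± 0.15 (SE), adjusted p = 4.7e-10). Ddx58, which encodes RIG-I, the substrate of Trim25, was 5.48-fold higher in Ly6Chi moDC than in CD103+ cDC (2.45 ± 0.15, adjusted p = 1.4e-10). Dhx58 (LGP2) was higher in Ly6Chi than in CD14hi moDC (1.17 ± 0.15, adjusted p = 1.7e-05), and Irf7, the factor that Trim35 acts on, was higher in Ly6Chi moDC than in CD14lo cDC (0.92 ± 0.16, adjusted p = 2e-04).

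Among ubiquitin and its E1 and E2 enzymes, 13 of 18 listed genes were tested, with 1 higher and 3 lower in moDC than in cDC (20.7% and 20.8% of all genes tested). In CD14hi moDC against CD103+ cDC 2 were higher and 5 lower (20.2% and 16.9%), and in Ly6Chi moDC against CD103+ cDC 2 higher and 4 lower (24.3% and 23.2%). Without CD103+ cDC replicates 1 and 3 these 3 pairs of counts were 0 and 4, 1 and 3, and 0 and 3, and the 2 higher in CD14hi moDC were also 1 without CD14hi moDC replicate 2 or either of those CD103+ arrays. Ube2e2, an E2 enzyme, was 2.87-fold lower in Ly6Chi than in CD14hi moDC (log2 difference -1.52 ± 0.29 (SE), adjusted p = 9e-04) and 2.39-fold higher in CD14hi moDC than in CD103+ cDC (1.26 ± 0.29, adjusted p = 0.002). In Ly6Chi against CD14hi moDC the list had 0 higher and 1 lower (6.81% and 11.4%). That 1 became 0 in at least 1 alternative other than leaving out 1 array. The enzymes of ISG15 conjugation, Uba7 and Ube2l6, were both lower in CD14hi moDC than in CD103+ cDC (Uba7 -0.71 ± 0.15, adjusted p = 0.0014, Ube2l6 -0.75 ± 0.19, adjusted p = 0.005). Of 7 interferon receptor and Janus kinase genes, 2 were higher and 2 lower in moDC than in cDC (20.7% and 20.8% of all genes), the higher count being 1 without Ly6Chi moDC replicate 1. The kinase genes Jak2 (-1.23 ± 0.12, adjusted p = 7.4e-08) and Tyk2 (-0.97 ± 0.12, adjusted p = 1.9e-06) were lower in moDC than in cDC, and the receptor gene Ifnar2 was higher (0.52 ± 0.09, adjusted p = 0.00016).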

How the data were processed

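RNA from sorted lung dendritic cells was hybridised to 12 one-colour arrays of 45101 probe sets, from 50 ng of RNA amplified before labelling per the labels. The deposited values are linear MAS5 intensities, per the submitters' processing notes, and in the files every array has the same 2% trimmed mean of 500.003. MAS5 settings: not given in the sources used here. Probe sets were named from the platform annotation: 34945 had 1 gene symbol, 932 several and 9160 none, and 64 controls were left out.

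Signals were analysed as log2(signal + 50), the pseudocount being 10% of the trimmed mean, so a fold change understates the change of dim genes. A gene was its probe set of highest mean. Genes above the array median on at least 3 arrays (10919) were fitted in limma 3.58.1 (R 4.3.3) with a mean per population, no covariate and an intensity trend, which left 8 residual degrees of freedom. Benjamini-Hochberg adjustment ran over all genes tested, and a call is an adjusted p under 0.05. No batch is given in the labels. Replicates are separate pools of mice by the labels, and 3 arrays a population limit the precision. The fit was tested on simulated data.

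Values in every array are given for the 20 TRIM genes of widest range among those called by the F test and for called antiviral members, the others by means, ranges and counts, and of the other lists up to 3 called genes per comparison. The members, role groups, lists and tests were chosen with earlier results of these data known. Promoter windows and symbols came from RefSeq, with the platform's symbols of all 58 TRIM genes found there. Figures were drawn with matplotlib 3.10.9 in Python 3.11.15. The alternatives were other scalings, pseudocounts, filters, probe set rules and fits, the replicate number as a block, each array left out, and 2 CD103+ arrays left out.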

Additional observations from a re-analysis of the deposited data

How the results depend on the processing

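Over 23 alternatives, 52 of the 91 calls of a TRIM gene in a comparison were kept in every alternative, 39 were lost in at least 1 and 0 reversed. The alternative that lost most, 25 calls, left out CD103+ cDC replicates 1 and 3 and was chosen after seeing the data; it leaves 1 CD103+ array, assumed to vary like the other populations. It gave 8 lower in CD14hi moDC versus CD103+ cDC, 2 higher and 4 lower in CD14lo cDC versus CD103+ cDC, and 2 higher in moDC versus cDC. The count of genes higher in CD14lo versus CD103+ cDC, 4 as reported, was also 2 with each array centred at its median, with no filter, with no intensity trend and with only the arrays compared. Averaging the probe sets of a gene gave 6 higher in Ly6Chi versus CD14hi moDC, 3 higher in Ly6Chi moDC versus CD14lo cDC and 6 higher in CD14hi moDC versus CD103+ cDC. Quantile normalization gave 5 higher and 5 lower in Ly6Chi versus CD14hi moDC. A stricter filter gave 5 lower in that comparison and 1 higher in CD14hi moDC versus CD14lo cDC. Other causes were not tested. Over all genes, centring each array changed the share of higher calls to 44.4%, against 54.4%, in CD14hi moDC versus CD103+ cDC and to 42.3%, against 53.3%, in CD14lo versus CD103+ cDC.

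Leaving out 1 array at a time, the F test called 20 to 23 TRIM genes. The higher and lower counts ran from 2 to 4 and 4 to 8 in Ly6Chi versus CD14hi moDC, 1 to 2 and 6 to 9 in Ly6Chi moDC versus CD14lo cDC, 3 to 4 and 10 to 12 in Ly6Chi moDC versus CD103+ cDC, 2 to 3 and 3 to 9 in CD14hi moDC versus CD14lo cDC, 3 to 4 and 12 to 15 in CD14hi moDC versus CD103+ cDC, 2 to 5 and 4 to 7 in CD14lo versus CD103+ cDC, and 3 to 4 and 14 to 15 in moDC versus cDC.

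The populations share replicate numbers but no label says that a number marks a shared pool. Deviations of same-numbered arrays correlated at -0.107 to 0.236 over 18 pairs, 8 of them over 0.1, and those of different numbers at -0.266 to 0.235 over 36. With the replicate number as a block, 2 TRIM genes instead of 1 were higher in Ly6Chi moDC versus CD14lo cDC, and 2 of the 91 calls were lost.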
